A study of Mus musculus with 8 samples.

Results

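The core clock genes are described here in liver RNA-seq of mice on a high-fat diet (HFD). The members are *Arntl*, *Clock*, *Npas2*, *Per1*, *Per2*, *Per3*, *Cry1*, *Nr1d1*, *Nr1d2* and *Dbp*, chosen by symbol through the annotation of their Ensembl identifiers, and all 10 were found among the 18095 genes of the count table. Libraries were made from the livers of 4 HFD WT and 4 HFD Inpp4b-/- males, each 12 weeks old. Both groups were the offspring of dams on HFD and stayed on it, so that no lean group enters the comparison. Inpp4b-/- mice lack *Inpp4b*, a lipid phosphatase that acts on phosphoinositides, and nothing in the sources restricts the deletion to the liver. The labels give a C57BL/6 background for both groups. The paper names FVB instead. The paper's discussion refers to a fed state for liver transcripts, and the hour of dissection is not given in the sources used here. The part of either in the values below was not tested.

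The clock of a liver cell is a feedback loop of transcription. ARNTL (BMAL1) pairs with CLOCK or its relative NPAS2 and activates genes through E-box motifs, and the PER and CRY proteins that are made as a result repress that pair. NR1D1 and NR1D2 (REV-ERBα and β) repress *Arntl* and *Npas2* through RORE motifs, and DBP carries the rhythm to output genes through D-box motifs. In mouse liver kept under a light cycle, transcripts of *Nr1d1* peak in the light phase, followed by those of *Dbp*, *Per3* and *Per1* and then *Per2*. *Cry1* peaks late in the dark phase, and *Arntl* and *Npas2* peak around its end. The levels of these genes relative to each other therefore vary with the hour at which a liver is taken.

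To show the motifs that tie the members to each other, the RefSeq promoter windows of GRCm38.p6 (250 bases before and 50 after each start) were searched on both strands for the E-box CACGTG, the E'-box CACGTT, the D-box TTANGTAA and the RORE TAGGTCA. Windows were at hand for 9 of the 10 genes, 13 windows in all, and 5 genes held a match. Of all 32851 windows of this length, 7.15% held the E-box, 4.68% the E'-box, 2.32% the D-box and 2.61% the RORE. The 250 bases before the start are printed for the 4 genes with a match there, and for *Arntl* the 30 bases around its match, 5′ to 3′ on the gene's strand with each match in capitals. No match overlapped another.
Per1, chr11:69098699-69098948, plus strand: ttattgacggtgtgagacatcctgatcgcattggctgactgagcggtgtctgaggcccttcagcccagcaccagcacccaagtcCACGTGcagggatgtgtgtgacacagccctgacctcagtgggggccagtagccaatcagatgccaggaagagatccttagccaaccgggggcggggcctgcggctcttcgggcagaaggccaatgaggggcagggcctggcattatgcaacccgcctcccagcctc
Cry1, chr10:85185055-85185304, minus strand: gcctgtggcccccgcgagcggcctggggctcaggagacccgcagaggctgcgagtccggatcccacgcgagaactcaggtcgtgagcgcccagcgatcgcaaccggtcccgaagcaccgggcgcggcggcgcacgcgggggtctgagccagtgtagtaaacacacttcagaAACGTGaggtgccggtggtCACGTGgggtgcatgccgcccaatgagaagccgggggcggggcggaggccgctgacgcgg
Nr1d1, chr11:98775378-98775627, minus strand: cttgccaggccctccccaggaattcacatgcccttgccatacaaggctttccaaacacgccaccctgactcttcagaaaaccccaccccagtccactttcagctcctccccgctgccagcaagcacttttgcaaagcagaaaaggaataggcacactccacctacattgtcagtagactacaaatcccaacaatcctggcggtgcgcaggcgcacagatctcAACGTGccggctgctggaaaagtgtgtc
Per3, chr4:151044666-151044915, minus strand: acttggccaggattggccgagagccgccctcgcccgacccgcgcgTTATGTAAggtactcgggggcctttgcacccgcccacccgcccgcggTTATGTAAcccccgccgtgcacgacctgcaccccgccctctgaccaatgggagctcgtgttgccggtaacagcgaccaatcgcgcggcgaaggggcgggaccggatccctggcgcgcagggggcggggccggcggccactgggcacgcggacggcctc
Arntl, chr7:113207530-113207559, plus strand: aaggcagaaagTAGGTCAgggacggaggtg

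The *Per1* window held an E-box that began 166 bases before the start and lies in an intron of a longer *Per1* transcript of GENCODE M21. The *Cry1* window held an E-box 60 bases and an E'-box 79 bases before the start, the latter read on the opposite strand. An E'-box on the opposite strand began 28 bases before the start of *Nr1d1*. *Per3* held the D-box at 158 and at 205 bases before its start, within an intron of *Camta1* on the same strand. The RORE of *Arntl* lies in the first exon, in the 5′ UTR, from position 31 when the start is counted as 1. A match describes these letters, and no binding was measured.

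Totals were 25893430 to 31427831 counts in the libraries labelled WT and 32738435 to 36662531 in those labelled Inpp4b-/-, and log2 CPM of any 2 libraries correlated across genes at 0.955 to 0.981. *Inpp4b* itself had 5 to 20 counts in the libraries labelled WT and 9 to 33 in those labelled Inpp4b-/-. They did not fall in the latter, so each direction below rests on the labels. Markers of hepatocytes summed to 77806 to 94002 CPM (counts of a gene divided by the TMM-scaled total of its library, times 1e+06) in the libraries labelled Inpp4b-/- and to 72355 to 79559 CPM in those labelled WT. These ranges overlapped, and most of the sum was *Alb*, at means of 64197 and 54316 CPM. The summed markers of Kupffer cells (62.8 to 107 CPM in the libraries labelled Inpp4b-/- and 29.9 to 85.4 in those labelled WT), T and B cells (1.94 to 2.57 and 1.04 to 3.31), stellate cells (151 to 176 and 135 to 201), endothelium (80.2 to 124 and 94.8 to 119.7), cholangiocytes (3.47 to 8.24 and 4.65 to 8.76) and erythroid cells (208 to 346 and 114 to 431) overlapped between the groups. Of the 31 markers tested, edgeR called 1, where 1.17% of all tested genes were called. It was the globin gene *Hba-a2*, which was lower in the libraries labelled Inpp4b-/- and has near-identical copies. DESeq2 called it and the stellate cell marker *Lrat*, 6.45% of the markers against 4.04% of its tested genes. *Lrat* was at 11.3 to 15.96 CPM in the libraries labelled Inpp4b-/- and 6.38 to 11.2 CPM in those labelled WT (log2 fold change 0.73, DESeq2 adjusted p = 0.0310, edgeR adjusted p = 0.164). The groups did not overlap for *Hba-a2*, *Lrat* and the hepatocyte markers *Alb* (log2 fold change 0.24) and *Ttr* (0.31). That is 12.9% of the markers tested, against 8.72% of all tested genes. The other tested markers of these cell types overlapped and went both ways. They were *Apoa1* (-0.05), *Fgb* (-0.22) and *Serpinc1* (0.06) of hepatocytes, and *Col1a1* (0.63), *Rgs5* (-0.08), *Dcn* (-0.12) and *Des* (-0.30) of stellate cells. Erythroid ones were *Hba-a1* (0.85), *Hbb-bs* (0.13), *Hbb-bt* (0.10) and *Alas2* (-1.09). The part of the marker differences in the values below was not tested. In bulk liver, fewer cells of a type and less RNA per cell cannot be told apart.

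In these livers the output gene *Dbp* and the repressors *Nr1d1* and *Nr1d2* were the most abundant core clock transcripts, and *Arntl* and *Npas2* the least. Per kilobase (kb) of exon, *Dbp* had a mean of 44.0 ± 8.11 CPM per kb (SD over the 8 libraries). *Nr1d1* followed with 30.9 ± 15.2 and *Nr1d2* with 22.5 ± 2.17 CPM per kb. The repressors of the PER and CRY families came next, at 12.8 CPM per kb for *Per2*, 10.2 for *Per1*, 7.12 for *Per3* and 4.04 for *Cry1*. Of the activators, *Clock* had 2.28 CPM per kb, *Arntl* 0.276 and *Npas2* 0.0240. Neighbours in this order were separated in every library, with ranges that did not overlap, at 3 steps: from *Nr1d2* to *Per2*, from *Clock* to *Arntl* and from *Arntl* to *Npas2*. At the other steps the ranges overlapped, although *Per3* was above *Cry1* and *Cry1* above *Clock* within each of the 8 libraries. *Nr1d1* was above *Nr1d2* in 4 of 8 libraries.

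**Figure D1:**
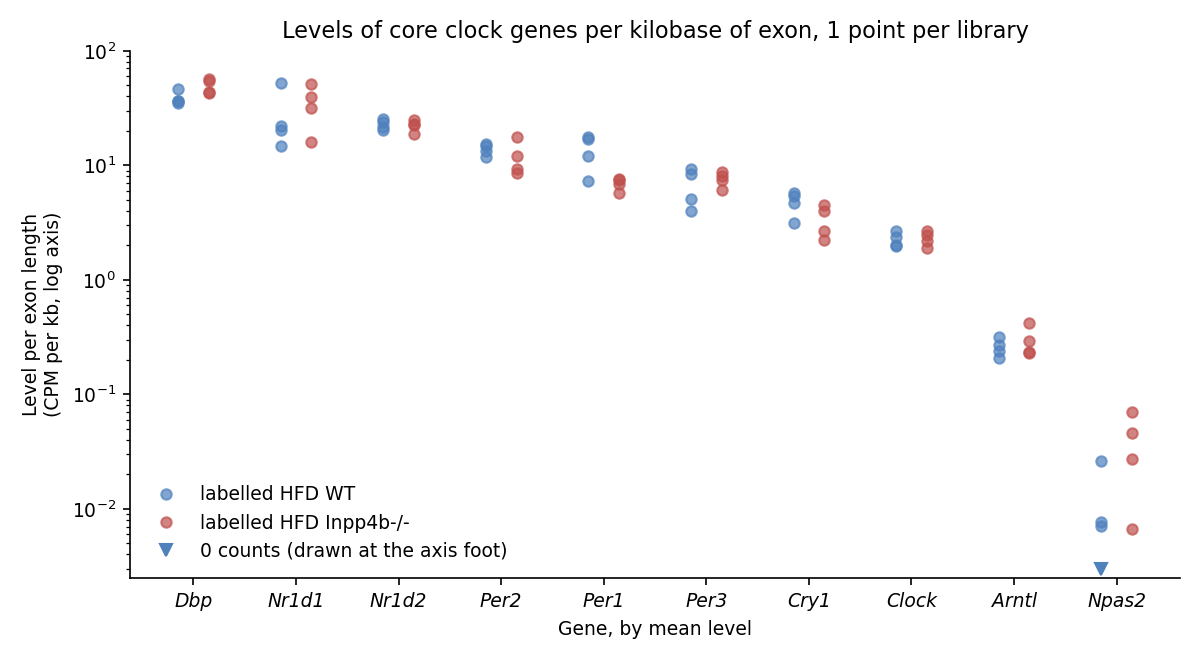
Level of each core clock gene in CPM per kb of exon (log axis), 1 point per library, with libraries labelled WT in blue and those labelled Inpp4b-/- in red. *Dbp*, *Nr1d1* and *Nr1d2* lie highest, *Arntl* lies below *Clock* in every library, and *Npas2* lies lowest, with 0 counts in WT replicate 4.

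The next comparison asked whether the clock genes differed between the genotypes on the same diet. Among the 9 members that passed the expression filter of edgeR, 0 were called, which required an adjusted p below 0.10 (Benjamini-Hochberg) as well as a fold above 1.3, against 1.17% of the 14866 genes tested (edgeR's quasi-likelihood test, n = 4 per genotype). At an unadjusted p under 0.05 there were 2 of 9, *Per1* and *Dbp*, where 13.9% of all tested genes were below it. With DESeq2, 1 of 9 was called, *Per1*, against 4.04% of its 17016 tested genes. The libraries of the groups overlapped in CPM for each of the 9 genes, whereas 8.72% of tested genes had groups that did not overlap. The estimates were positive for 5 genes and negative for 4, with a median log2 fold change of 0.02, close to that of all tested genes, 0.0027. Nothing says whether the 4 mice of a group came from different litters, so each p measures the spread between these libraries.

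The activators of the loop overlapped between the labels. *Arntl* (ENSMUSG00000055116, chr7:113207465-113314126 in GRCm38), the partner without which the loop stops, was at 3.16, 1.76, 1.74 and 2.19 CPM in replicates 1 to 4 labelled Inpp4b-/- and at 2.03, 1.57, 1.79 and 2.38 CPM in those labelled WT. Its highest library was Inpp4b-/- replicate 1, and the other 7 lay between 1.57 and 2.38 CPM, from 50 to 78 counts each. The log2 fold change was 0.19 (SE 0.28, 95% interval -0.42 to 0.81, edgeR adjusted p = 0.800) and turned to -0.03 without that library. *Clock* (ENSMUSG00000029238, chr5:76209868-76304792) was at 36.5, 29.7, 33.7 and 26.1 CPM in the libraries labelled Inpp4b-/- and at 32.6, 27.7, 27.1 and 36.9 CPM in those labelled WT. These ranges nearly coincided, with a log2 fold change of 0.02 (SE 0.13, 95% interval -0.28 to 0.32, edgeR adjusted p = 0.964).

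*Npas2* (ENSMUSG00000026077, chr1:39193731-39363236), which can stand in for *Clock*, was too low to be tested with the others. It had 8, 5, 1 and 12 counts in replicates 1 to 4 labelled Inpp4b-/- and 1, 4, 1 and 0 counts in those labelled WT. In all 26 counts stood against 6, a log2 ratio of mean CPM of 1.88. On log2(CPM + 1) the difference was 0.17, not separable at this depth (two-sided exact permutation test over 70 arrangements, p = 0.114). The highest library labelled WT was above the lowest labelled Inpp4b-/-.

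*Per1* had the largest log2 fold change of the 9 tested genes. *Per1* (ENSMUSG00000020893, chr11:69095217-69109960), an immediate target of ARNTL and CLOCK that is also induced by glucocorticoids, was at 42.3, 32.4, 38.4 and 41.7 CPM in the libraries labelled Inpp4b-/- and at 98.6, 67.7, 41.0 and 95.4 CPM in those labelled WT. All 4 libraries labelled Inpp4b-/- were low and close together (38.7 ± 4.58 CPM, mean ± SD, n = 4), and those labelled WT were spread (75.7 ± 27.0 CPM), with WT replicate 3 at the level of the other group. The log2 fold change was -0.97 (SE 0.24, 95% interval -1.51 to -0.43, unadjusted p = 0.00261, edgeR adjusted p = 0.136) and missed the threshold. It passed with DESeq2, at an adjusted p of 0.00713, and in edgeR without WT replicate 3, where the log2 fold change was -1.17 and the adjusted p 0.0272. Over all alternatives its adjusted p from edgeR or DESeq2 ran from 0.00713 to 0.300.

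For the relatives of *Per1* the libraries fell in another order. *Per2* (ENSMUSG00000055866, chr1:91415982-91459324) was at 54.0, 50.4, 69.9 and 103 CPM in the libraries labelled Inpp4b-/- and at 78.7, 86.4, 89.9 and 69.4 CPM in those labelled WT. Its lowest and its highest library both carried the label Inpp4b-/- (log2 fold change -0.23, SE 0.21, 95% interval -0.69 to 0.24, edgeR adjusted p = 0.673). The estimate was -0.48 without Inpp4b-/- replicate 4 and -0.099 without Inpp4b-/- replicate 2. *Per3* (ENSMUSG00000028957, chr4:151003652-151044665), a D-box gene, was at 78.1, 58.2, 71.3 and 83.6 CPM in the libraries labelled Inpp4b-/- and at 48.4, 88.5, 81.1 and 38.4 CPM in those labelled WT. WT replicates 1 and 4, the libraries with the most *Per1*, had the least *Per3* (log2 fold change 0.18, SE 0.25, 95% interval -0.37 to 0.74, edgeR adjusted p = 0.786). That estimate was 0.0026 without WT replicate 4 and 0.37 without WT replicate 2.

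*Cry1* (ENSMUSG00000020038, chr10:85131700-85185064), the late repressor of the loop, was at 8.99, 7.49, 13.2 and 15.0 CPM in the libraries labelled Inpp4b-/- and at 15.8, 19.1, 18.0 and 10.4 CPM in those labelled WT. The 3 highest libraries carried the label WT, and WT replicate 4 lay within the range of the other group. Its log2 fold change was -0.50 (SE 0.25, 95% interval -1.06 to 0.06, edgeR adjusted p = 0.405).

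Of the REV-ERB genes, *Nr1d1* varied most and *Nr1d2* least. *Nr1d1* (ENSMUSG00000020889, chr11:98767932-98775333) was at 120.3, 157, 96.8 and 49.3 CPM in the libraries labelled Inpp4b-/- and at 67.9, 45.1, 62.6 and 161 CPM in those labelled WT. Both its highest and its lowest library carried the label WT, a 3.58-fold range. The log2 fold change was 0.33 (SE 0.42, 95% interval -0.61 to 1.27, edgeR adjusted p = 0.769) and was 0.079 without Inpp4b-/- replicate 2 and 0.86 without WT replicate 4. *Nr1d2* (ENSMUSG00000021775, chr14:18204054-18239127) stayed between 102 and 133 CPM in the libraries labelled Inpp4b-/- and between 109 and 136 CPM in those labelled WT (log2 fold change -0.03, SE 0.11, 95% interval -0.26 to 0.21, edgeR adjusted p = 0.939). In *Nr1d1*, 263 bp of exon (8.55%) lie opposite *Thra* (8.08 to 14.1 CPM), and the strand setting of the counting is not stated.

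*Dbp* (ENSMUSG00000059824, chr7:45705088-45710203), the D-box activator of output genes, was at 163, 168, 132 and 128 CPM in the libraries labelled Inpp4b-/- and at 105, 109.9, 139.7 and 109 CPM in those labelled WT. WT replicate 3 alone among the libraries labelled WT reached the range of the other group. The log2 fold change was 0.35 (SE 0.13, 95% interval 0.06 to 0.64, unadjusted p = 0.0211, edgeR adjusted p = 0.268). Of its exons, 539 bp (18.0%) lie opposite *Sphk2* (31.3 to 54.6 CPM). WT replicate 3 was thus the library nearest to the other group for both *Per1* and *Dbp*.

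**Figure D2:**
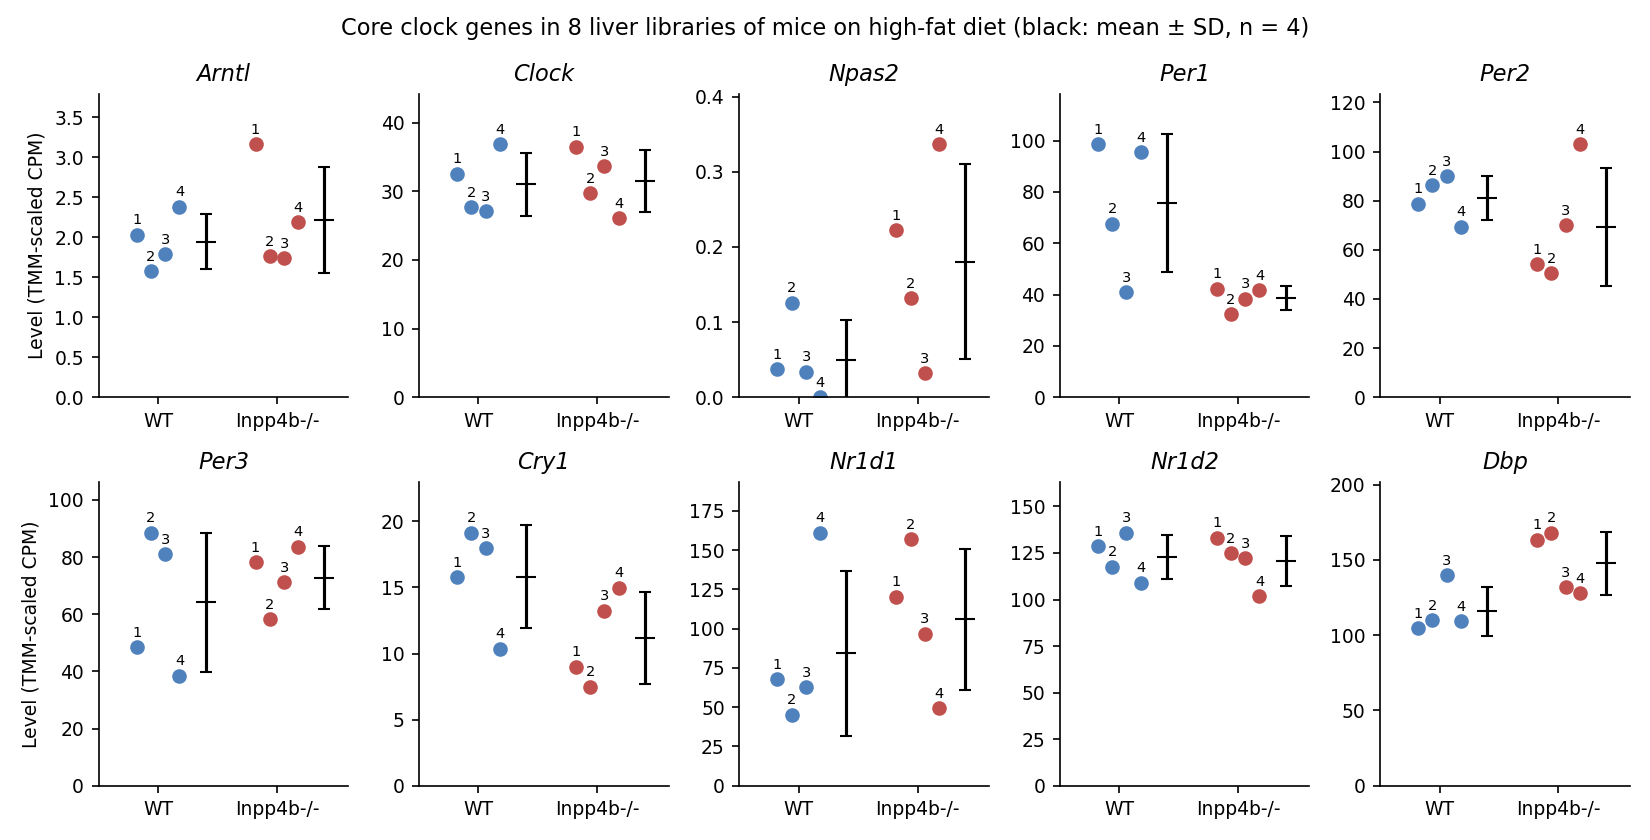
CPM of the 10 core clock genes in each library (points, numbered by replicate) with the mean ± SD of each label (black, n = 4), each panel on a linear axis from 0. *Per1* sits between 32.4 and 42.3 CPM in the libraries labelled Inpp4b-/- and between 41.0 and 98.6 CPM in those labelled WT, while *Nr1d1* spans a similar range under both labels.

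The members differed in how far mice of the same genotype stood apart. The within-genotype SD of log2(CPM + 1) was 0.74 for *Nr1d1*, above that of 98.0% of the 11693 genes whose mean count reached 50, whose median was 0.19. *Per3* (0.43), *Per1* (0.43), *Cry1* (0.40) and *Per2* (0.35) stood at the percentiles 90.7, 90.3, 88.6 and 83.4. *Arntl* (0.23), *Clock* (0.20), *Dbp* (0.20) and *Nr1d2* (0.15) lay at the percentiles 62.3, 54.1, 51.5 and 34.6. On this scale the most variable members were thus REV-ERBα and the PER and CRY repressors. The added 1 shrinks differences of *Arntl*, at 1.57 to 3.16 CPM, more than those of *Per2*, at 50.4 to 103 CPM. In CPM the highest library was 2.01-fold the lowest for *Arntl* and 2.04-fold for *Per2*, so their order in spread rests on this scale. *Nr1d1* also had the largest SE of the 9 fold changes.

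Relations among the genes over the libraries were first examined with *Arntl* as the reference. The 9 pairs had Pearson's r on log2(CPM + 1) from -0.48 with *Cry1* to 0.59 with *Clock*. None had an unadjusted p under 0.05, and the lowest adjusted p over the 9 pairs was 0.766 (exact permutation test, n = 8). For *Clock*, Spearman's rho was 0.38 (exact permutation p = 0.360), and r fell to -0.13 without the 2 libraries farthest from the median of *Arntl*, Inpp4b-/- replicate 1 and WT replicate 4. *Arntl* had 50 to 114 counts a library, which limits these values. In the libraries labelled WT alone, *Arntl* had r of 0.95 with *Nr1d1* and -0.95 with *Cry1*, and in those labelled Inpp4b-/- -0.04 and -0.15 (4 libraries each, no test).

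All 45 pairs of members were then compared, a step added after the values had been seen. At an unadjusted p under 0.05 there were 5 pairs, and 0 at an adjusted p under 0.05 over the 45, the lowest being 0.0843 (exact permutation test). The strongest relation was that of *Nr1d1* with *Cry1*. Pearson's r was -0.90 (exact permutation p = 0.00327, adjusted p = 0.0843) and Spearman's rho -0.86 (p = 0.0107, adjusted p = 0.138, exact permutation). It was -0.87 without the 2 libraries farthest in *Nr1d1* (Inpp4b-/- replicate 2 and WT replicate 4), -0.91 within the libraries labelled Inpp4b-/- and -0.99 within those labelled WT. With each library taken as its deviation from the mean of its genotype, r was -0.94 (exact permutation test, pairings within genotype, p = 0.00174, adjusted p = 0.0586).

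*Nr1d1* was also opposed to *Per2* and, in rank, to *Per3*. With *Per2*, r was -0.86 (exact permutation p = 0.00749, adjusted p = 0.0893), rho -0.86 (exact permutation p = 0.0107), and r -0.91 without the 2 farthest libraries and -0.85 within genotype. With *Per3*, r was -0.63 (exact permutation p = 0.0940, adjusted p = 0.430), rho -0.83 (exact permutation p = 0.0154) and r -0.79 within genotype, but -0.24 without the 2 farthest libraries. With *Clock*, r was 0.73 (exact permutation p = 0.0493, adjusted p = 0.430), rho 0.79 (exact permutation p = 0.0279), and r 0.91 without the 2 farthest libraries and 0.75 within genotype. *Per2* and *Cry1* in turn went together, with r of 0.89 (exact permutation p = 0.00375, adjusted p = 0.0843), rho of 0.83 (exact permutation p = 0.0154), 0.94 without the 2 libraries farthest in *Per2* and 0.87 within genotype.

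The pairs of *Per1* were of another kind. Its r with *Nr1d1* was -0.09 (exact permutation p = 0.832) and with *Cry1* 0.30. It was opposed to *Dbp*, with r of -0.87 (exact permutation p = 0.00794, adjusted p = 0.0893), rho of -0.83 (exact permutation p = 0.0154), -0.79 without WT replicates 1 and 4, and -0.71 within genotype (exact permutation p = 0.0434, adjusted p = 0.279). *Per1* and *Dbp* are also the members with the smallest p between the labels, so this pair is in part the contrast of the groups. Between *Nr1d1* and its relative *Nr1d2*, r was 0.14 (exact permutation p = 0.734).

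**Figure D3:**
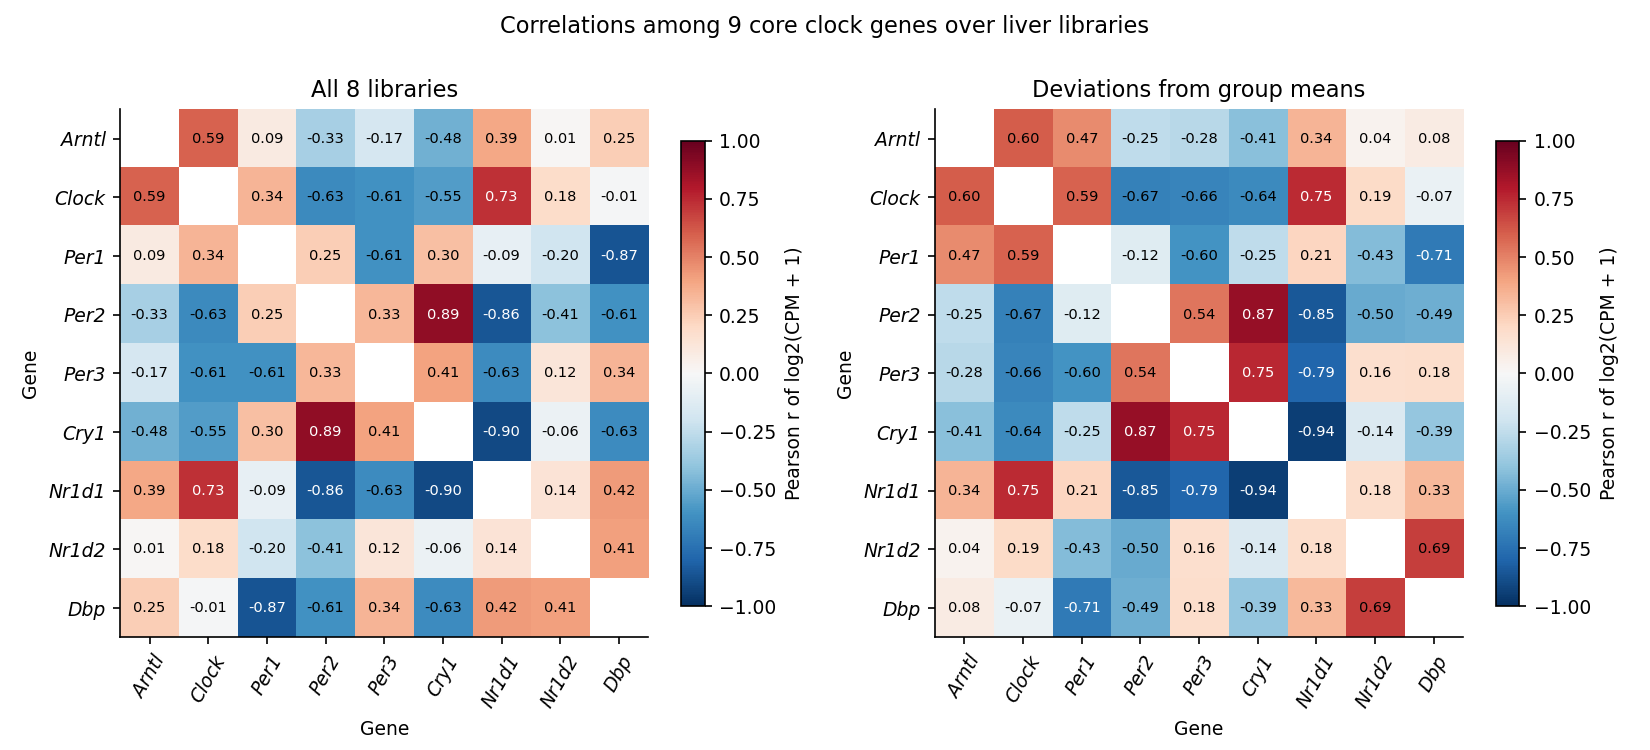
Pearson's r of log2(CPM + 1) between core clock genes (color scale from -1 to 1, *Npas2* left out for its low counts) over 8 libraries on the left and after subtraction of genotype means on the right. *Nr1d1* is negative with *Per2*, *Per3* and *Cry1* in both panels, at -0.90 and -0.94 for *Cry1*.

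In the order of *Nr1d1*, both ends held libraries of both labels, although 3 of the 4 libraries with the least *Nr1d1* were labelled WT and 3 of the 4 with the most were labelled Inpp4b-/-. WT replicate 2 (45.1 CPM) and Inpp4b-/- replicate 4 (49.3 CPM) stood at the low end, then WT replicates 3 and 1 (62.6 and 67.9 CPM), Inpp4b-/- replicates 3 and 1 (96.8 and 120.3 CPM), and Inpp4b-/- replicate 2 (157 CPM) and WT replicate 4 (161 CPM) at the high end. At the low end *Cry1* was at 19.1 and 15.0 CPM and *Per2* at 86.4 and 103 CPM. At the high end *Cry1* was at 7.49 and 10.4 CPM and *Per2* at 50.4 and 69.4 CPM. The ratio of *Nr1d1* to *Cry1* per kb was 2.55 in WT replicate 2 and 3.58 in Inpp4b-/- replicate 4, and it reached 22.8 in Inpp4b-/- replicate 2 and 16.9 in WT replicate 4.

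**Figure D4:**
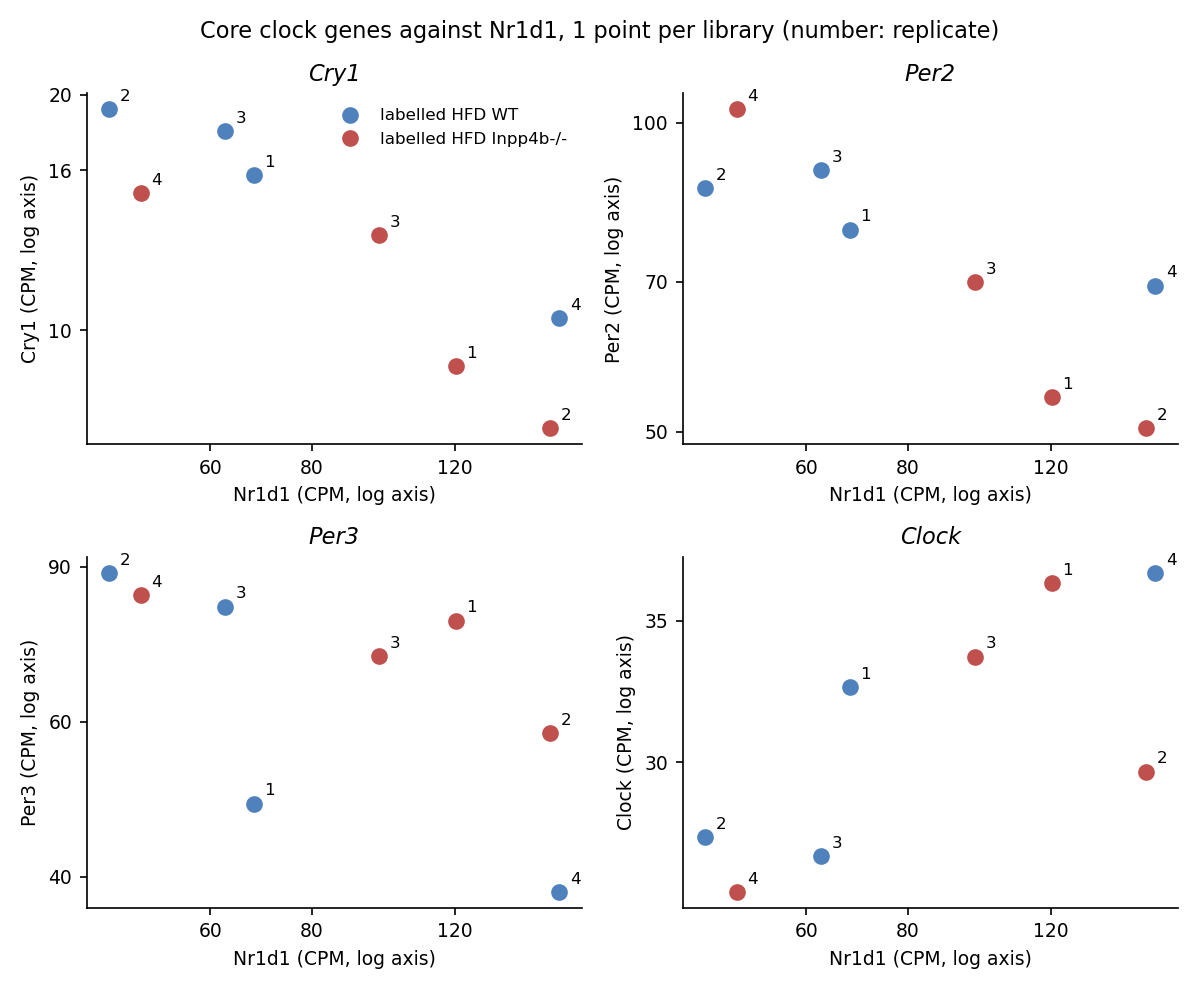
CPM of *Cry1*, *Per2*, *Per3* and *Clock* against CPM of *Nr1d1* (log axes), 1 point per library numbered by replicate, labelled WT in blue and Inpp4b-/- in red. *Cry1* goes from 19.1 CPM in the library with the least *Nr1d1* to 7.49 and 10.4 CPM in those with the most, with both colors along the slope.

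Around the core, 46 other clock genes in 4 lists were examined, of which 45 were tested and 4 were called, all lower in the libraries labelled Inpp4b-/- (edgeR, background 1.17%). They were *Noct*, *Tspan4*, *Sgk1* and *Hsp90aa1*. The median log2 fold change of all 45 was -0.12 (0.0027 over all tested genes). DESeq2 called 9 of them, against 4.04% of its tested genes, 6 lower and 3 higher. The groups did not overlap for 7 of the 45, against 8.72% of all tested genes. The count of 4 depended on single libraries. It was 0 without Inpp4b-/- replicate 2, 3 or 4, 1 without Inpp4b-/- replicate 1 or WT replicate 1, and 3 or 4 without another library labelled WT.

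In the secondary loop, which holds the RORs that oppose REV-ERB and the D-box repressor NFIL3, 0 of 9 tested genes were called (*Rorb* was not analysed here). The share called by edgeR over all tested genes was 1.17%. *Nfil3* was at 17.2, 18.5, 21.05 and 15.3 CPM in the libraries labelled Inpp4b-/- and at 46.7, 13.1, 15.2 and 44.3 CPM in those labelled WT (log2 fold change -0.72, SE 0.39, edgeR adjusted p = 0.442, and -0.42 without WT replicate 1). Its high libraries, WT replicates 1 and 4, were those with the most *Per1* and the least *Per3*. *Ciart*, a repressor of ARNTL and CLOCK, ranged from 13.99 to 36.5 CPM and overlapped between the labels (log2 fold change 0.22, edgeR adjusted p = 0.808).

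Among genes for the turnover of clock proteins (kinases, F-box proteins and a deubiquitinase), edgeR called 0 of 8, against 1.17% of all tested genes. *Btrc*, which encodes the F-box protein that marks PER for degradation, was at 20.1, 16.1, 21.3 and 18.2 CPM in the libraries labelled Inpp4b-/- and at 11.2, 13.8, 14.3 and 14.1 CPM in those labelled WT. These groups did not overlap. The log2 fold change was 0.50 (SE 0.12, 95% interval 0.22 to 0.78), with an edgeR adjusted p of 0.136 and a DESeq2 adjusted p of 0.0264. *Fbxl21*, the F-box protein that acts on CRY, was at 4.38 to 6.09 CPM and at 2.88 to 5.04 CPM (log2 fold change 0.40, edgeR adjusted p = 0.468).

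Of 15 rhythmic output genes of liver, 2 were called by edgeR, both lower, where 1.17% of all tested genes were called. Over the list, 5 estimates were higher and 10 lower, with a median log2 fold change of -0.12. *Noct*, the rhythmic phosphatase nocturnin, was at 18.9, 9.75, 13.2 and 16.1 CPM in the libraries labelled Inpp4b-/- and at 58.7, 42.9, 26.5 and 33.4 CPM in those labelled WT. Its groups did not overlap, and it had the largest fall of the 45 genes (log2 fold change -1.48, SE 0.26, 95% interval -2.07 to -0.89, edgeR adjusted p = 0.0499). *Tspan4*, a tetraspanin, was at 34.8 to 42.1 CPM against 47.8 to 63.5 CPM (log2 fold change -0.56, SE 0.10, edgeR adjusted p = 0.0602). *Rgs16*, a regulator of G-protein signalling, was at 57.9, 153, 134 and 52.3 CPM in the libraries labelled Inpp4b-/- and at 37.1, 61.8, 47.8 and 46.9 CPM in those labelled WT. Its groups overlapped and its log2 fold change of 1.04 (SE 0.34, edgeR adjusted p = 0.225) did not pass the edgeR threshold, but passed with DESeq2 (adjusted p = 0.0493).

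Of 13 genes that report the signals setting the liver clock (glucocorticoids, feeding, temperature), 2 were called by edgeR, both lower, where 1.17% of all tested genes were called, and the median log2 fold change was -0.53. *Sgk1*, a kinase induced by glucocorticoids, was at 12.1, 10.2, 11.8 and 11.1 CPM in the libraries labelled Inpp4b-/- and at 18.7, 15.8, 14.6 and 18.5 CPM in those labelled WT (log2 fold change -0.58, SE 0.12, edgeR adjusted p = 0.0804). *Hsp90aa1*, a chaperone of the heat shock response and of the glucocorticoid receptor, was at 224 to 295 CPM against 361 to 603 CPM (log2 fold change -0.83, SE 0.17, edgeR adjusted p = 0.0782). *Tat*, a liver enzyme induced by glucocorticoids, was at 831, 362, 795 and 882 CPM against 2830, 1114, 1047 and 1068 CPM, with a log2 fold change of -1.08 (SE 0.38, edgeR adjusted p = 0.254), which was -0.58 without WT replicate 1. *Hspa1b*, a heat shock gene, ranged from 7.53 CPM in WT replicate 2 to 190.4 CPM in WT replicate 4 (log2 fold change -1.15, edgeR adjusted p = 0.559). *Cirbp*, an RNA-binding protein induced by cold, went the other way, at 21.8, 22.0, 25.1 and 27.9 CPM in the libraries labelled Inpp4b-/- and at 11.6, 17.5, 18.9 and 11.6 CPM in those labelled WT. These groups did not overlap, with a log2 fold change of 0.70 (SE 0.18, edgeR adjusted p = 0.141, DESeq2 adjusted p = 0.0212). *Rbm3* (log2 fold change -0.05, edgeR adjusted p = 0.849) and *Hsf1* (-0.09, edgeR adjusted p = 0.826), of the same list, overlapped between the groups. DESeq2 also called *Tsc22d3*, a glucocorticoid target (log2 fold change -0.59), and the chaperone gene *Hspa8* (-1.03), for which edgeR gave adjusted p-values of 0.201 each. WT replicate 3, the library labelled WT with the least *Per1*, also had the least *Noct*, *Sgk1*, *Hsp90aa1*, *Hspa8* and *Tat* of the libraries labelled WT. For *Tat* it lay close to WT replicates 2 and 4. It did not have the least *Tspan4* (57.6 CPM, with 47.8 CPM in WT replicate 2) or *Tsc22d3* (96.4 CPM, with 85.8 CPM in WT replicate 4). Nor did it have the least *Hspa1b* (26.2 CPM, with 7.53 CPM in WT replicate 2). The part of these signals in the *Per1* values was not tested.

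**Figure D5:**
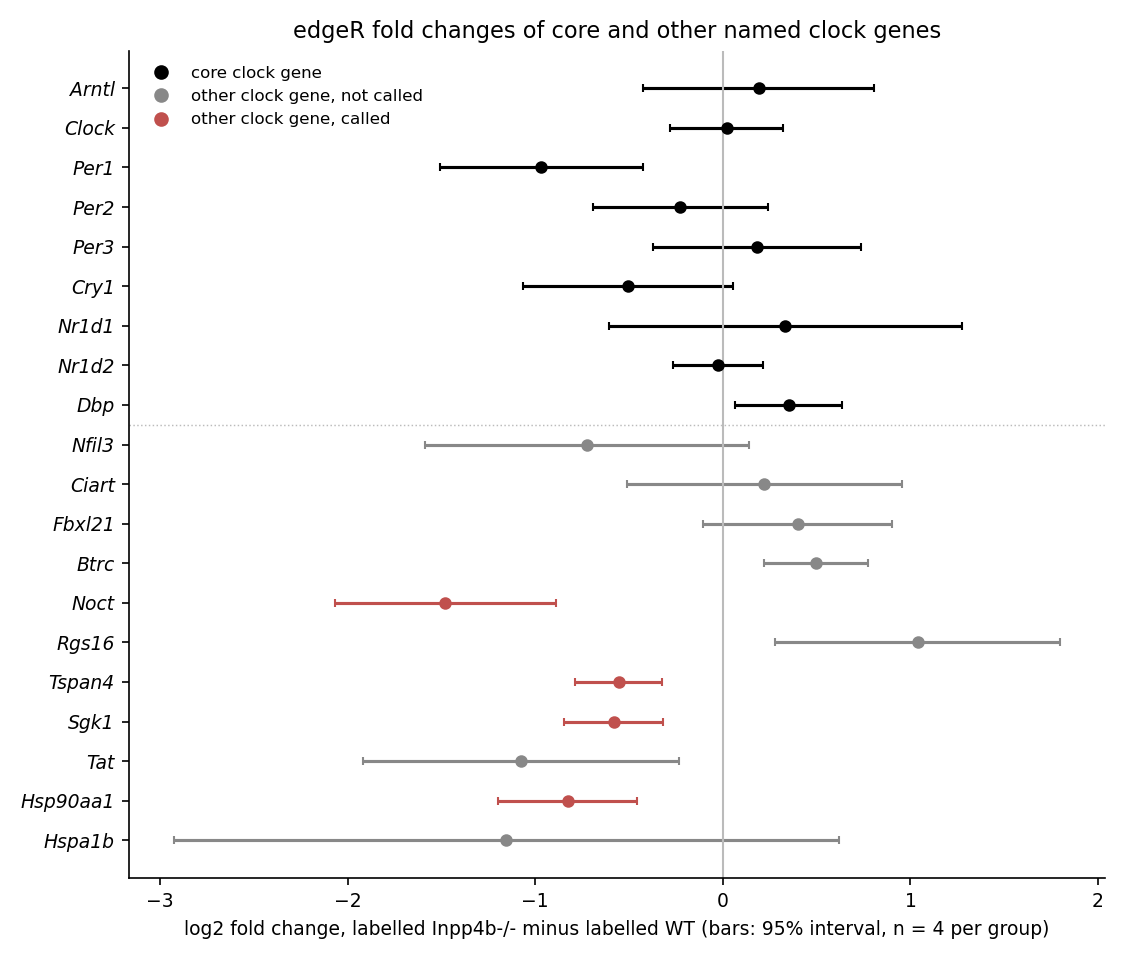
log2 fold change of the 9 tested core clock genes (black) and 11 other clock genes (red where called, grey where not) with 95% intervals, labelled Inpp4b-/- minus labelled WT, n = 4 each. Among core genes the intervals of *Per1* and *Dbp* exclude 0, and the called genes *Noct*, *Tspan4*, *Sgk1* and *Hsp90aa1* all lie left of 0.

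The other clock genes were also set beside *Nr1d1* over the libraries, a comparison added after the values had been seen and given without a test, since all genes share the same 8 libraries. Of the 45 genes, 11 had r of -0.7 or below with *Nr1d1*, and 2 had r of 0.7 or above. Among the 11684 other genes whose mean count reached 50, 5.37% and 4.19% did so. The 11 include *Cry2* (r -0.88), a repressor of ARNTL and CLOCK, the clock kinase gene *Gsk3b* (-0.86) and *Usp2* (-0.90), a rhythmic deubiquitinase. Relatives of *Dbp* were among them, *Tef* (-0.75) and *Hlf* (-0.71), although *Dbp* itself had r of 0.42. So were the output genes *Lonrf3* (-0.92), *Por* (-0.84) and *Upp2* (-0.79). The repressor gene *Bhlhe41* went with *Nr1d1* (0.86). After subtraction of genotype means these values were -0.87 for *Cry2*, -0.89 for *Usp2*, -0.95 for *Upp2* and 0.86 for *Bhlhe41*. *Upp2* spanned 134.7 to 820.1 CPM over the 8 libraries. Between the labels edgeR called 0 of the genes named here, where 1.17% of all tested genes were called, so that few calls could be looked for among so few genes.

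The genes whose levels over the 8 libraries were most like those of *Arntl*, among 11693 genes, were *Fuk* (r 0.95), *Foxq1* (0.92), *Vmp1* (0.92), *Ripk1* (0.91) and *Zfp217* (0.90). Those most opposed were *Nfatc2ip* (-0.95), *Pik3r3* (-0.93), *Ramac* (-0.92), *Vps26a* (-0.91) and *Orai1* (-0.89). None is a core clock gene. They stand at the ends of a ranking of all these genes over 8 libraries and are given as a description.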

How the data were processed

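Liver RNA of 4 HFD WT and 4 HFD Inpp4b-/- males was sequenced as paired-end reads, after removal of rRNA per the labels. The submitters' processing notes name HISAT2, HTSeq, DESeq2 and the build GRCm38. The authors deposited raw counts per gene, which were used for all tests, and a normalized signal (counts over a size factor per library), which the authors made with DESeq2 and which served only as an alternative for the correlations. The counting's annotation release and strand setting are not given in the sources used here. GENCODE M21 held all 18095 identifiers and supplied symbols, places and union exon lengths.

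Counts were normalized by TMM and tested with edgeR 4.0.16 (filterByExpr, quasi-likelihood test, no covariate, R 4.3.3) on 14866 genes. Calls required an adjusted p (Benjamini-Hochberg) below 0.10 together with a fold above 1.3. Alternatives were DESeq2 1.42.0, 2 other normalizations, 2 other filters, other thresholds, leaving out each library, and the replicate number as a block. Levels are TMM-scaled CPM. Correlations used log2(CPM + 1) with exact permutation tests (Python 3.11.15, scipy 1.17.1). The scripts were tested on simulated data.

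The members and lists were chosen with earlier results of these data known. Named beside the members are, from each list, the called genes and the 2 with the largest absolute log2 fold change, and the 5 genes most like and most opposed to *Arntl*. All 45 pairs, the genes compared with *Nr1d1* and the genes named there (*Cry2*, *Gsk3b*, *Usp2*, *Tef*, *Hlf*, *Lonrf3*, *Por*, *Upp2*, *Bhlhe41*), and *Cirbp*, *Tsc22d3*, *Hspa8*, *Lrat*, *Alb* and *Ttr*, were chosen after values were seen. The genes set beside *Cirbp* and the named markers from their lists were also added after values were seen. Depths (25893430 to 36662531 counts) leave *Npas2*, at 12 counts or fewer, with little precision.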

Additional observations from a re-analysis of the deposited data

Results flagged for a closer look

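Among 42 sets of 4 libraries (the genes given per library, under each label), 6 held a library that stood apart from its label's other 3 by Dixon's criterion, where chance gives about 1 in 20, or 2.1 sets. The only core clock gene among them was *Dbp*, at 139.7 CPM in WT replicate 3 against at most 109.9 CPM in the other libraries labelled WT. *Btrc* was low in WT replicate 1, at 11.2 CPM, with 13.8 CPM the nearest. *Tat* was at 362 CPM in Inpp4b-/- replicate 2, with 795 CPM the nearest, and at 2830 CPM in WT replicate 1, with 1114 CPM the nearest. *Hspa1b* was at 51.0 CPM in Inpp4b-/- replicate 2, with 22.8 CPM the nearest, and at 190.4 CPM in WT replicate 4, with 35.4 CPM the nearest. The libraries that stand apart differ from gene to gene, and no library was left out for this reason.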

How the results depend on the processing

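The count of core clock genes called was 0 under each alternative except DESeq2 and the fit without WT replicate 3, where *Per1* made it 1, a range of 0 to 1 when single libraries were left out. The count of the other clock genes (4) was 9 with DESeq2, 1 at an adjusted p under 0.05 and 0 to 4 without single libraries. The count over all tested genes (174) was 688 with DESeq2, 71 at an adjusted p under 0.05 and 53 to 345 without single libraries. With a replicate block these counts were 0 core genes, 0 other clock genes and 26 genes in all, but same-numbered libraries were not paired (their deviations correlated at -0.17 to -0.010). Other normalizations, filters and no fold threshold kept each count within 1.5 times. Estimates near 0 changed sign when a library was left out, over ranges of -0.032 to 0.30 for *Arntl*, -0.058 to 0.11 for *Clock* and -0.079 to 0.047 for *Nr1d2*, and so did *Hspa1b*, -1.57 to 0.34, which turned without WT replicate 4. *Ciart*, at 0.22, ran from 0.036 without Inpp4b-/- replicate 4 to 0.49 without WT replicate 1. Without the 2 farthest libraries, the correlation of *Arntl* was -0.13 with *Clock*, 0.38 with *Per2*, -0.18 with *Nr1d1*, -0.44 with *Nr1d2* and -0.13 with *Dbp*, for which Spearman's rho was -0.048, all of opposite sign to the value over 8 libraries. That of *Nr1d1* with *Per1* was 0.21 within genotype. The cause was not tested. Low counts of *Arntl* (50 to 114) and *Npas2* limit both genes.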

Other observations

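*Pparg*, the nuclear receptor that drives lipid storage and is induced in fatty liver, was the gene most opposed to *Cry1* among 11693 genes, a comparison chosen after values were seen. It was at 7.55, 8.02, 2.61 and 2.56 CPM in replicates 1 to 4 labelled Inpp4b-/- and at 1.18, 0.409, 0.910 and 3.80 CPM in those labelled WT. These rest on 81 to 305 counts in the libraries labelled Inpp4b-/- and on only 13 to 99 in those labelled WT. Within the label Inpp4b-/-, replicates 1 and 2 stood well above replicates 3 and 4. Between the labels its log2 fold change was 1.73 (SE 0.65, edgeR adjusted p = 0.279), and it was not called. Pearson's r of log2(CPM + 1) with *Cry1* was -0.97 over the 8 libraries, -0.98 after subtraction of genotype means, -0.97 within the libraries labelled Inpp4b-/- and -0.99 within those labelled WT. With *Nr1d1* it was 0.82 over the 8 libraries and 0.91 after subtraction of genotype means, and with *Per2* -0.81 and -0.80. *Pparg* was thus highest, within each label, in the libraries with little *Cry1*, such as WT replicate 4, which had the most *Pparg* (3.80 CPM) and the least *Cry1* (10.4 CPM) of the libraries labelled WT. These correlations describe 8 libraries, the gene stood at the end of a list of 11693, and no test of them was made.

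The gene most like *Cry1* was *Epha2*, an ephrin receptor (r 0.99, 8.70 to 25.3 CPM), and those nearest to *Nr1d1* were *Rom1* (r 0.95) and *Sars* (0.95), with *Crot*, a peroxisomal carnitine acyltransferase, at 0.95 and 288 to 709 CPM. Most opposed to *Nr1d1* was *Pfas* (-0.97), an enzyme of purine synthesis. These too were chosen after values were seen.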
